A study of Mus musculus with 4 samples.

Results

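Neuropeptide genes encode precursor proteins that neurons cut into short signalling peptides. The 10 genes described here are Sst (somatostatin), Vip (vasoactive intestinal peptide), Npy (neuropeptide Y), Penk (enkephalins), Pdyn (dynorphins), Tac1 (substance P and neurokinin A), Tac2 (neurokinin B), Cck (cholecystokinin), Cort (cortistatin) and Crh (corticotropin-releasing hormone). They were chosen by symbol, and all 10 symbols were found among the 21933 genes of the deposited matrices. Nuclei of the right cerebral cortex were sequenced from 2 control males (CrT+/y) and 2 CrT-KO males (CrT-/y), untreated adult littermates, with 1 animal per library. CrT-KO mice carry, in every cell of the body, a deletion of internal exons of the X-linked creatine transporter gene Slc6a8.

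The precursors are cut by prohormone convertases, packed into dense core vesicles and released chiefly during sustained firing, and the peptides act at G protein-coupled receptors. In the cortex, somatostatin and VIP give their names to classes of inhibitory interneurons, and neuropeptide Y, cholecystokinin and corticotropin-releasing hormone mark subsets of these. In the striatum, medium spiny neurons (MSNs) of the indirect pathway make enkephalin and carry the dopamine receptor Drd2, and those of the direct pathway make substance P and dynorphin and carry Drd1.

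Several peptide genes are textbook targets of CREB, a factor that is activated by neuronal activity through cyclic AMP and calcium and that binds the palindrome TGACGTCA or its shorter core TGACG. Upstream sequence was available for 8 of the 10 genes, all but Penk and Crh. The core, read on both strands (TGACG or CGTCA), was found within 250 bases before the RefSeq start in 5 of the 8 genes. Counted by promoter, it was in 5 of their 9 entries and in 17.8% of all 32851 promoters of the same set. The full palindrome, which contains the core in each direction, was found in Sst alone of the 8 genes. That was 1 of the 9 entries, against 1.55% of all promoters. The 30 bases around the core nearest the start are shown for the 5 genes, 5′ to 3′ on the strand of the gene (RefSeq, GRCm38.p6), with the core or palindrome in capitals, to show where the motif lies. The stretches of Sst and Tac1 lie before the RefSeq start used here but inside the longer gene spans of the GENCODE annotation given further on.
Sst (chr16:23890872-23890901, minus strand): ctccttggcTGACGTCAgagagagagttta
Vip (chr10:5639127-5639156, plus strand): ggatcactactgTGACGtctttcggggagc
Cck (chr9:121495724-121495753, minus strand): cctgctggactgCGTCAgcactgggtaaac
Tac1 (chr6:7555006-7555035, plus strand): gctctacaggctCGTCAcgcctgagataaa
Cort (chr4:149126764-149126793, minus strand): ctccggcttgtgCGTCAccgcgtgagtgtg
A match of letters is a description and does not show that the factor binds there.

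Unique molecular identifiers (UMIs, each 1 captured RNA molecule) were counted over the whole gene body, introns included. Of the 35694 nuclei, 34458 remained after doublets were removed, among them 15309 excitatory, 8631 inhibitory and 8536 non-neuronal nuclei. The libraries held 51507483 to 65240843 UMIs, and the pairs of libraries shared 12 to 19 barcodes. Types were named "X-like" from marker genes that include none of the 10, and the 10 were kept out of the clustering. PV-like (1263 nuclei), SST-like (1065), VIP-like (741), LAMP5-like (406), D1 MSN-like (1116) and D2 MSN-like (1034) nuclei were found among inhibitory neurons, the MSNs being a striatal type in tissue labelled cortex. Excitatory nuclei were named for cortical layer and projection (IT, intratelencephalic, ET, extratelencephalic, NP, near-projecting, CT, corticothalamic), with 11126 nuclei in 8 types. As a check of the labels, Slc6a8 in excitatory neurons gave 215 and 181 UMIs for controls against 61 and 47 for CrT-KO (log2 fold change -1.94 ± 0.19 SE, edgeR quasi-likelihood test, adjusted p = 0.000393).

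All 10 peptide transcripts were sparse, with 101 (Tac2) to 2525 (Cck) UMIs in all kept nuclei. Inhibitory neurons held between 61.5% (Sst) and 85.7% (Vip) of the UMIs of each gene except Cck, of which 63.4% were in excitatory neurons and 15.7% in inhibitory neurons. Excitatory nuclei were more numerous and deeper than inhibitory ones (medians of 8096 and 5605 UMIs), which also enters these shares. Free RNA in droplets gives some UMIs to nuclei that do not make a transcript, so each level was set beside that in non-neuronal nuclei as a group. Those nuclei were shallower, with a median of 1266 UMIs against 5061 in VIP-like and 6574 in SST-like nuclei. Levels are given as CPM, the UMIs of a gene per 1000000 UMIs of the type in a library, and are compared within a gene, because the genes differ in length (1386 bases for Sst to 13280 bases for Pdyn).

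**Figure D1:**
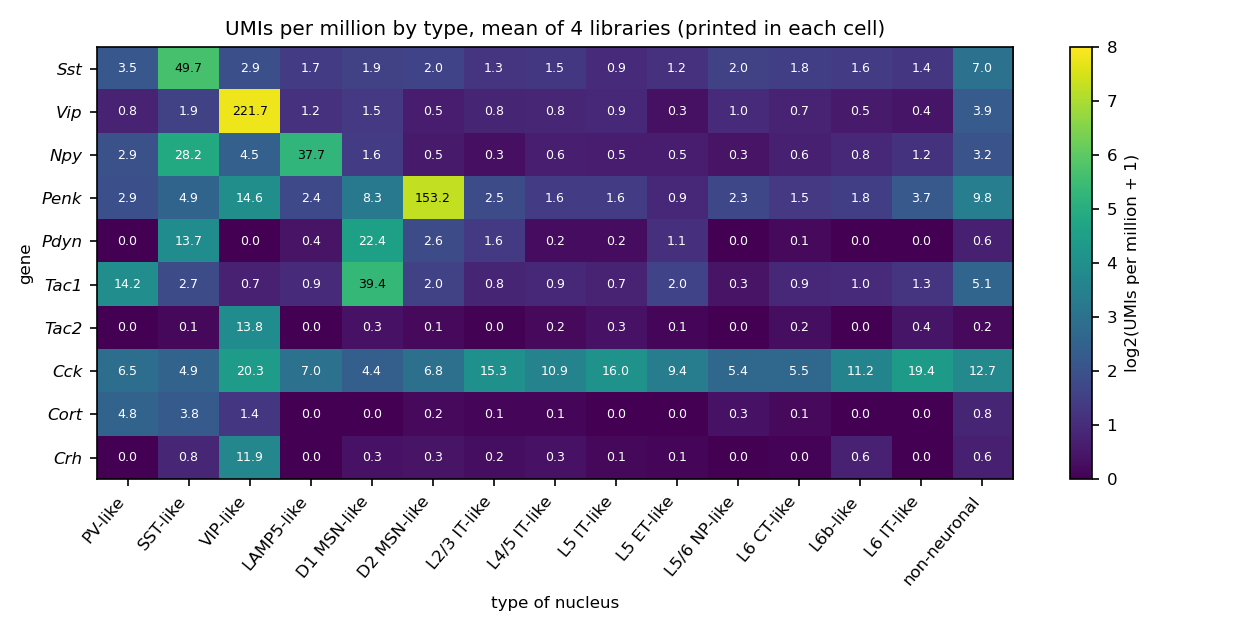
Levels of the 10 genes (rows) in the 14 named neuron types and in non-neuronal nuclei (columns). Each cell prints the mean CPM over 4 libraries, and the colour is log2 of that value plus 1. Vip stands at 221.7 in VIP-like nuclei and Penk at 153.2 in D2 MSN-like nuclei. Cck in excitatory types runs from 5.4 (L5/6 NP-like) to 19.4 (L6 IT-like), on both sides of the 12.7 of non-neuronal nuclei.

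Sst (chr16:23889573-23890958, minus strand), whose peptide inhibits the release of other transmitters and hormones, was highest in SST-like nuclei. The libraries gave 60.7 and 52.5 CPM in controls against 46.3 and 39.3 in CrT-KO, a mean of 49.7 ± 9.07 (SD, n = 4). The next type, PV-like, had a mean of 3.50, and no library of it reached the lowest SST-like library. Non-neuronal nuclei, at 6.998 ± 3.22, were above the mean of every named neuron type other than SST-like. Per nucleus PV-like nuclei held more, with 2.53 Sst UMIs per 100 nuclei against 1.08 in non-neuronal nuclei, whereas after thinning to 1000 UMIs 0.238% of PV-like nuclei had one. The share of SST-like nuclei with at least 1 Sst UMI was 25.6% (20.5% to 31.5% by library). Thinned in the same way, it was 4.89%, against 0.736% of non-neuronal nuclei.

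Cort (chr4:149125034-149126763, minus strand) encodes a close relative of somatostatin that binds the same receptors. It had 44 UMIs in PV-like nuclei, between 3.96 and 5.55 CPM in each library, and 28 UMIs in SST-like nuclei, between 2.73 and 5.54. The ranges of the 2 types overlapped. No Cort UMI was found in 1116 D1 MSN-like nuclei, which allows a share of nuclei with a UMI of up to 0.269% and does not bound the share that expresses the gene (in PV-like nuclei 3.40% had a UMI), and non-neuronal nuclei were at 0.77 CPM.

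Npy (chr6:49822710-49829507, plus strand), a peptide of slow inhibition, was shared by LAMP5-like and SST-like nuclei. LAMP5-like nuclei had 56.8 and 31.2 CPM in controls against 28.7 and 34.3 in CrT-KO. The SST-like libraries gave 39.0 and 20.8 in controls against 24.2 and 28.8 in CrT-KO. The 2 types overlapped, and every library of each lay above the VIP-like maximum of 12.2, the next in the order. Thinned shares were 3.21% of LAMP5-like and 2.07% of SST-like nuclei, against 0.304% of non-neuronal nuclei.

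Vip (chr10:5639218-5647617, plus strand) encodes the peptide after which the interneurons that inhibit other interneurons are named. VIP-like nuclei had 328 and 215 CPM in controls against 179 and 165 in CrT-KO. The next type, SST-like, had a mean of 1.91, below the 3.88 of non-neuronal nuclei. A Vip UMI was found in 47.5% of VIP-like nuclei, or 18.7% after thinning, against 0.416% of thinned non-neuronal nuclei.

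Crh (chr3:19693401-19695396, minus strand), best known as the hypothalamic trigger of the stress axis, was highest among the named types in VIP-like nuclei. They held 47.6% of its 105 UMIs, against 26.7% in excitatory and 7.62% in non-neuronal nuclei. Its 50 UMIs in VIP-like nuclei gave 12.2 and 16.9 CPM in controls against 11.6 and 7.08 in CrT-KO, against 0.81 in SST-like nuclei. Tac2 (chr10:127724478-127731768, plus strand), the ligand of the NK3 receptor, was also highest in VIP-like nuclei, with 57 UMIs there and 3 or fewer UMIs in each of the other inhibitory types. It stood at 18.3 and 16.9 CPM in controls against 10.7 and 9.44 in CrT-KO. Non-neuronal nuclei held 2 of the 101 Tac2 UMIs. Neither gene had a UMI in 1263 PV-like nuclei, which allows a share with a UMI of up to 0.238% and, again, says nothing of nuclei that express the gene without one (in VIP-like nuclei 5.94% had a Crh and 6.75% a Tac2 UMI).

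Penk (chr4:4133531-4138819, minus strand, 499 bases of it shared with A830012C17Rik on the other strand), the enkephalin precursor, was highest in D2 MSN-like nuclei, at 178 and 164 CPM in controls against 131 and 140 in CrT-KO. Among the named types VIP-like nuclei came next, at 19.3 and 17.9 in controls against 10.7 and 10.6 in CrT-KO. A further MSN sub-cluster led by Casz1, outside the named types, had more Penk than VIP-like nuclei, at 41.9 CPM over all libraries. The D1 MSN-like range, 5.37 to 12.4, overlapped the VIP-like one and the non-neuronal one (6.17 to 13.6). Thinned shares were 13.6% of D2 MSN-like nuclei, 1.49% of VIP-like nuclei (0.592% to 2.26% by library) and 1.10% of non-neuronal nuclei (0.492% to 1.59%). Unthinned, 100 VIP-like nuclei held 8.10 Penk UMIs (7.15% of nuclei with one), against 1.48 (1.42%) in the shallower non-neuronal nuclei.

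Tac1 (chr6:7554879-7565834, plus strand) and Pdyn (chr2:129686565-129699844, minus strand), the direct-pathway peptides, were both highest, among the 14 named types, in D1 MSN-like nuclei. The Casz1-led MSN nuclei outside these types had more Tac1 still, at 51.6 to 77.6 CPM by library. In D1 MSN-like nuclei Tac1 stood at 43.6 and 41.5 CPM in controls against 36.8 and 35.8 in CrT-KO. Pdyn in the same D1 MSN-like nuclei stood at 17.4 and 23.1 in controls against 28.5 and 20.7 in CrT-KO. Each had a second type among cortical interneurons, which differed between the genes: Tac1 in PV-like nuclei (mean 14.2, range 11.9 to 17.1) and Pdyn in SST-like nuclei (mean 13.7, range 12.6 to 15.0). Pdyn had no UMI in 1263 PV-like or 741 VIP-like nuclei, and its non-neuronal level was 0.63. In D2 MSN-like nuclei the means were 1.97 for Tac1, below the non-neuronal mean of 5.06, and 2.58 for Pdyn.

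**Figure D2:**
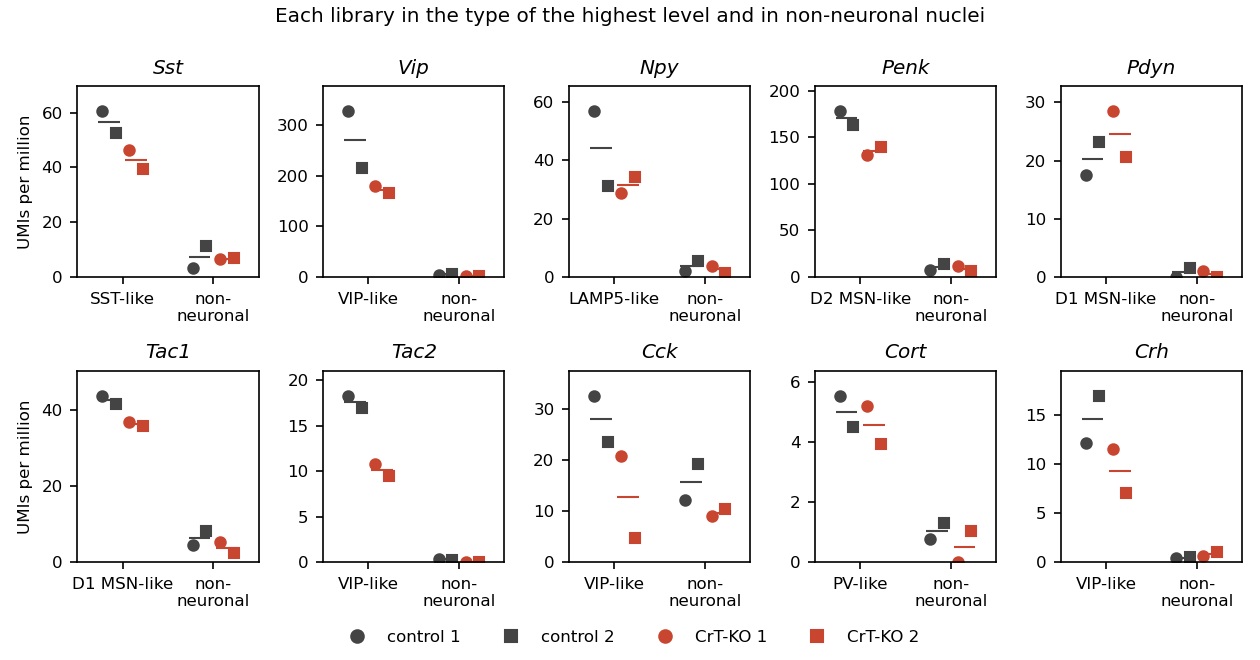
CPM (vertical axis) of each gene in the named type of its highest level and in non-neuronal nuclei, with 1 point per library and a line at the mean of each genotype. The points of both CrT-KO libraries lie below both control libraries for Sst, Vip, Penk, Tac1, Tac2, Cck and Crh in these types, and not for Npy, Pdyn or Cort. Of all genes tested there, 17% in VIP-like, 17.3% in SST-like, 17.5% in D1 MSN-like and 17.5% in D2 MSN-like nuclei lay so.

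Cck (chr9:121489824-121495694, minus strand), a peptide of both pyramidal cells and some interneurons, had no single type. VIP-like nuclei (mean 20.3 ± 11.6 SD, n = 4), L6 IT-like (19.4 ± 6.77), L5 IT-like (15.99 ± 5.00) and L2/3 IT-like nuclei (15.3 ± 1.91) led, and neighbours in this order overlapped. On this scale microglia-like nuclei reached 20.3 ± 6.49. Per nucleus the order was another: 100 nuclei held 18.3 Cck UMIs in L6 IT-like, 16.4 in L5 IT-like, 14.8 in L2/3 IT-like and 11.6 in VIP-like nuclei, and 2.11 in microglia-like nuclei. At equal depth, thinned to 1000 UMIs, the shares were 2.44%, 0.694%, 1.42% and 1.76% in these neuron types and 1.45% in microglia-like nuclei, of which 1194 of 2230 were too shallow to enter. All 4 neuron shares lay within the range of the microglia-like libraries (0% to 2.60%).

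**Figure D3:**
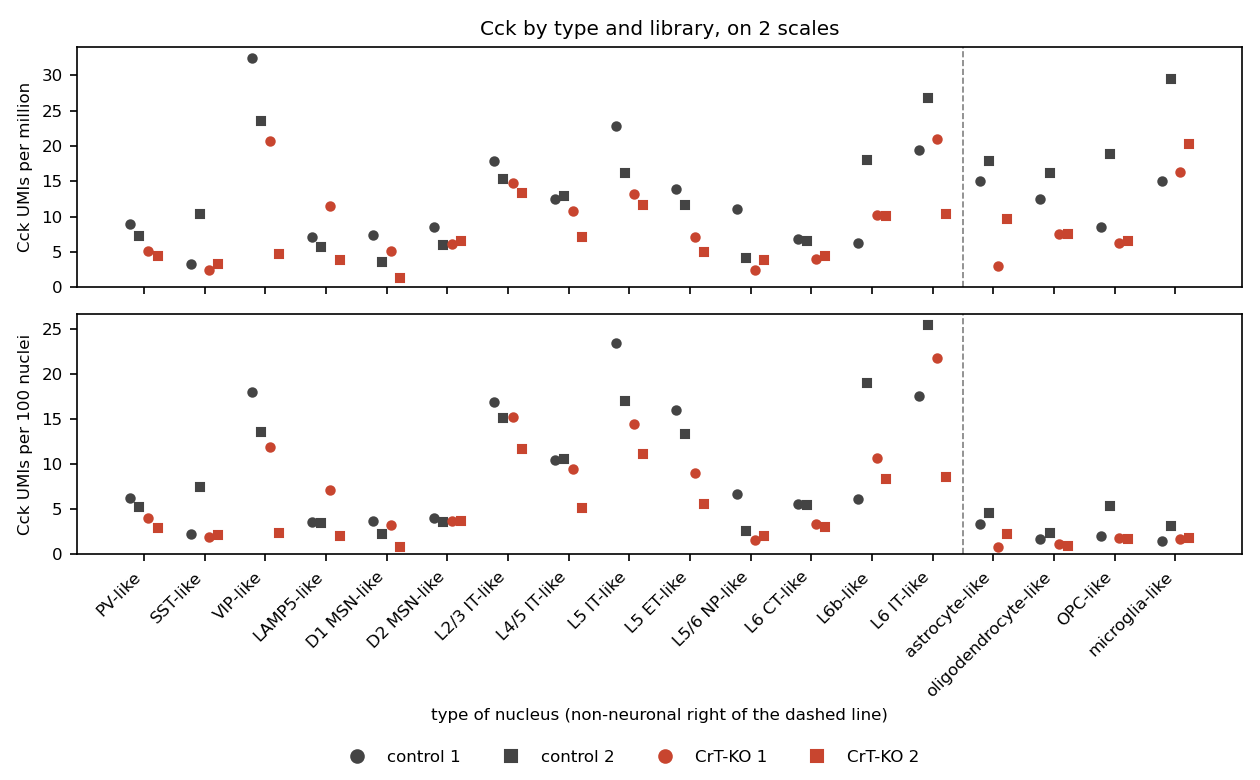
Cck in the neuron types and, right of the dashed line, non-neuronal types, with 1 point per library. The upper axis is CPM and the lower axis UMIs per 100 nuclei. Microglia-like nuclei stand at 20.3 on the upper scale and at 2.11 on the lower one.

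Within types, levels differed between sub-clusters, each named here by its leading genes (values chosen after they were seen, with no test). SST-like nuclei fell into 3, led by Hpse (545 nuclei), by Trhde and Lypd6 (401) and by Hhip, Nos1 and Chodl (119), the last with the markers of long-range projecting cells. Over all libraries Npy was at 111 CPM in the Hhip-led nuclei against 17.7 in Hpse-led and 19.5 in Trhde-led nuclei. Sst was at 97.0 against 43.9 and 44.4. Pdyn went the other way, at 21.5 in Hpse-led nuclei, 6.2 in Trhde-led and 0 UMIs in Hhip-led nuclei. That 0 came from 773339 UMIs of all genes, against 2724331 (17 of Pdyn) in Trhde-led nuclei, so it is a loose limit. Per library, Npy in the Hhip-led nuclei was at 210 and 71.1 in controls against 81.5 and 119 in CrT-KO, from 14 to 29 UMIs each. Every one of these libraries lay above every library of the other 2 sub-clusters (highest 32.1).

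VIP-like nuclei fell into Grpr-led (436 nuclei, with Cp and Igf1) and Frem1-led (305, with Col14a1) sub-clusters. Vip was at 363 CPM in the first and 69.5 in the second, Crh at 18.4 and 5.5, and Penk at 23.1 and 5.5. Cck was the reverse, at 9.43 and 33.3, except that the second CrT-KO library, with 2 UMIs in each sub-cluster, was low in both (4.34 and 5.18). Tac2 was at 17.0 and 10.6, with library ranges that overlapped. PV-like nuclei divided in Tac1: the Mrvi1-led nuclei (583) had 16.1 to 28.6 CPM by library, and the 6330411D24Rik-led nuclei (625) 7.06 to 8.36. A further, Unc5b-led PV-like sub-cluster (55 nuclei, 295563 UMIs of all genes) had 0 Tac1 UMIs, a loose limit. D2 MSN-like nuclei had more Penk in the Drd2-led (631 nuclei, 139 to 202 CPM by library) than in the Upb1-led sub-cluster (403 nuclei, 119 to 143), with ranges that overlapped. D1 MSN-like nuclei had more Tac1 in the Prkch-led (538 nuclei, 39.0 to 55.4) than in the Impg1-led sub-cluster (578 nuclei, 30.1 to 35.8), with no overlap. Among MSN-like nuclei a Casz1-led sub-cluster of 224 that could be named neither D1 nor D2 held both Tac1 (60.7 ± 11.6 SD, n = 4) and Penk (43.4 ± 16.8).

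**Figure D4:**
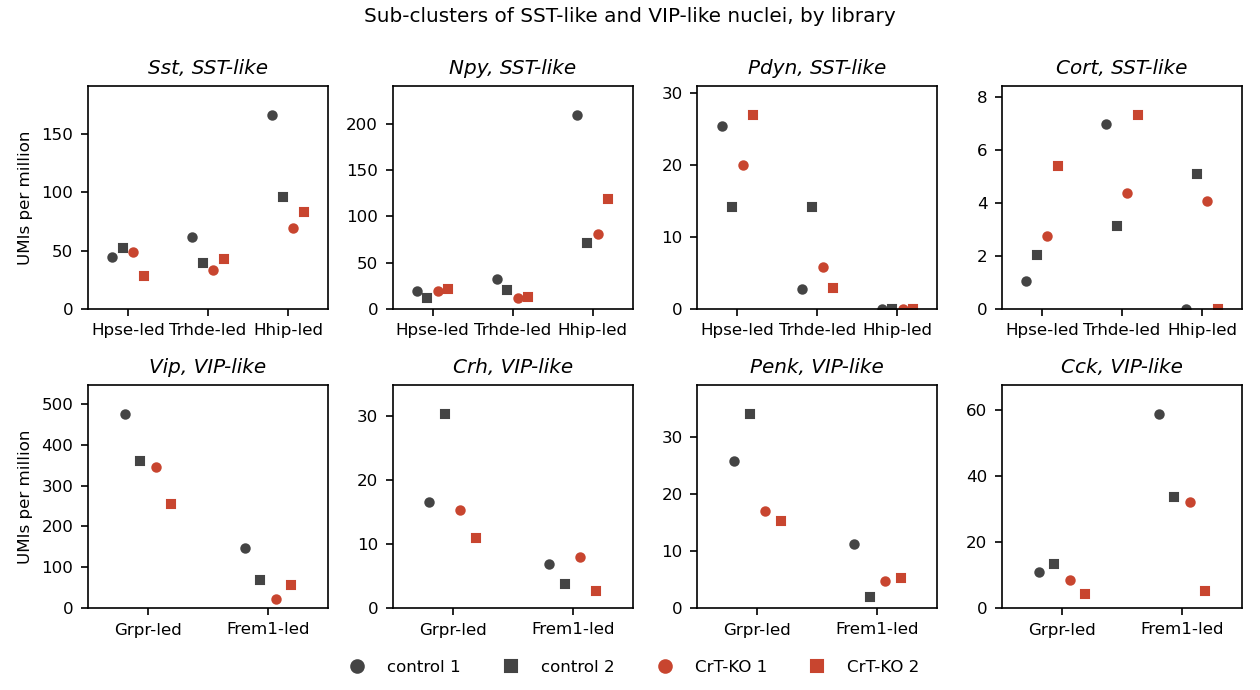
CPM of 4 genes in the sub-clusters of SST-like nuclei (top row) and of 4 genes in those of VIP-like nuclei (bottom row), with 1 point per library. Npy is highest in every library of the Hhip-led nuclei, and Pdyn has 0 UMIs in these 119 nuclei, a loose limit. Vip and Cck are high in opposite VIP-like sub-clusters, Cck in 3 of the 4 libraries.

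The same pairs were looked at within single nuclei, over all libraries. Of SST-like nuclei with a Sst UMI, 23.1% also had a Npy UMI, against 10.6% of those without (median depths 6868 and 6436 UMIs), and the share was higher in all 4 libraries. Pdyn was found in 5.49% and 7.95% of these 2 sets. Of VIP-like nuclei with a Vip UMI, 12.2% had Penk, 10.5% Tac2 and 8.52% Crh, against 2.57%, 3.34% and 3.60% of those without, although the nuclei with Vip were the shallower ones (medians 4899 and 5296). Penk and Tac2 were higher in the nuclei with Vip in all 4 libraries, and Crh in 3 of them. Cck went the other way, at 7.67% with Vip and 9.77% without, except in the second CrT-KO library (2.74% and 2.06%). Of D1 MSN-like nuclei with a Tac1 UMI, 17.2% had Pdyn, against 9.77% of those without, with medians of 6222 and 5385 UMIs. In the Casz1-led nuclei, Tac1 was found in 24.4% of those with a Penk UMI and 25.7% of those without.

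For each gene, the transcripts whose log2 levels over the 14 types were most like it were ranked by Pearson's r. These values are a description over types of the same 4 libraries, and most are set by 1 or 2 types. Vip, Crh and Tac2 shared Grpr, the receptor of gastrin-releasing peptide (r = 0.974, 0.971 and 0.947), and Cp, ceruloplasmin (0.941, 0.955 and 0.968). Sst was nearest to C1qtnf7 (0.956), Adamts12 (0.947) and Hhip (0.931), Npy to Edaradd (0.971), and Cort to 6330411D24Rik (0.964). Penk was nearest to Drd2 (0.931), with Adora2a, the adenosine receptor of the indirect pathway, after Me2 (0.875 and 0.883). Tac1 was nearest to Ebf1 (0.815), a factor of direct-pathway neurons, Pdyn to Gabrg1 (0.838) and Cck to Itga8 (0.867). Drd2, Adora2a and Ebf1 were among the markers that named the D2 and D1 MSN-like types. Their places here were therefore partly set by the naming.

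The study asked how creatine deficiency changes expression in each cell population, so the sums of UMIs per library were compared between genotypes. No peptide gene passed the test in any population (edgeR quasi-likelihood test, Benjamini-Hochberg adjustment over all genes tested, threshold 0.1). Each library is 1 animal, so the spread is that between 2 animals of a genotype. The smallest adjusted p was 0.217, for Cck in excitatory neurons. The background share of genes past the threshold was 0.332% in excitatory neurons, where 7 of the 10 genes had enough counts, and 0.0619% in inhibitory neurons, where all 10 had. DESeq2 called none either. At an unadjusted p under 0.05, edgeR counted 1 of the 7 and 4 of the 10 (Penk, Vip, Cck and Sst), against 8.86% and 5.23% of all genes tested. DESeq2 counted 1 and 3, against 594 of all 13846 genes in excitatory and 179 of all 12924 in inhibitory neurons.

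Most of the differences had the same sign. Among 28 pairs of a gene and a named type that could be tested, 25 had a lower value in CrT-KO, and all 3 exceptions were Pdyn. Of all genes tested, 49.8% to 51.9% had a lower value in these types. In inhibitory neurons as a whole the median log2 fold change of the 10 genes was -0.46, against -0.0042 for all genes tested. Both CrT-KO libraries lay below both control libraries for 6 of the 10 (Crh, Penk, Vip, Tac2, Cck and Sst), as did 17.5% of all genes tested. The pairs share 4 animals, and the members of a type share its nuclei, so these counts are not independent. The 10 genes were also chosen with earlier results of these data known, so the counts are a description and no test.

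In VIP-like nuclei all 5 testable genes were lower in both CrT-KO libraries than in both control libraries, as were 17% of all genes tested there. Vip differed by -0.66 ± 0.17 (SE, log2, adjusted p = 0.953, unadjusted p = 0.00174), from the 328, 215, 179 and 165 CPM given above. Without the first control library the difference was -0.35, and without the second it was -0.91. In every such comparison the genotype left with 1 library is assumed to vary like the other. Penk differed by -0.80 ± 0.37, Tac2 by -0.79 ± 0.38, Crh by -0.61 ± 0.43 and Cck by -1.01 ± 0.42. For Cck the second CrT-KO library had 4 UMIs and the other libraries 25 to 32, and without it the difference was -0.46. Without the first CrT-KO library, where that low library stands alone, it was -2.53. For Crh it ranged from -1.03 to -0.32 as libraries were left out. Of all genes in VIP-like nuclei 0% passed the adjusted threshold, and 4.36% had an unadjusted p under 0.05, as had 3 of the 5 (Vip, Penk and Cck). Within the Grpr-led sub-cluster Vip was at 475 and 361 CPM in controls against 346 and 256 in CrT-KO, and in the Frem1-led sub-cluster at 147 and 69.4 against 22.5 and 57.0.

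In SST-like nuclei Sst differed by -0.37 ± 0.17 (adjusted p = 0.836), with no overlap of the genotypes. Npy differed by -0.15 ± 0.25 and Pdyn by 0.06 ± 0.30, both with overlap. Genes past the threshold were 0.0337% in SST-like, 0.0639% in PV-like and 0.0322% in LAMP5-like nuclei. In PV-like nuclei Tac1 differed by -0.34 ± 0.28 and Cort by -0.11 ± 0.46, and in LAMP5-like nuclei Npy by -0.40 ± 0.35. Without the first control library, which held the highest Npy level in both types, the Npy difference was 0.35 in SST-like and -0.02 in LAMP5-like nuclei.

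In MSN-like nuclei, Penk in the D2 type differed by -0.31 ± 0.14 (adjusted p = 0.762), again with no overlap. Tac1 in the D1 type differed by -0.22 ± 0.21, and Pdyn by 0.30 ± 0.27 with the first CrT-KO library highest. Genes past the threshold were 0.0959% in D1 MSN-like and 0.32% in D2 MSN-like nuclei. Over all inhibitory neurons the Penk difference was -0.52 ± 0.12 (edgeR adjusted p = 0.244), and -0.59 without the first control library. That sum depends on how many D2 MSN-like nuclei it holds. Their share was 13.9% and 12.4% of a control library's inhibitory nuclei, against 11.6% and 9.81% for CrT-KO (two-sided exact permutation test, p = 0.333, the smallest that 2 against 2 can give). The part of this share in the Penk difference was not tested.

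Excitatory neurons held most of the Cck UMIs, at a mean of 12.0 CPM, which was not above the mean of non-neuronal nuclei. In excitatory neurons Cck had 471 and 436 UMIs in controls against 409 and 285 in CrT-KO. The log2 difference was -0.46 ± 0.12 (adjusted p = 0.217, unadjusted p = 0.0021). The direction was the same in the 6 excitatory types in which Cck could be tested. It was -0.19 ± 0.17 in L2/3 IT-like, -0.45 ± 0.23 in L4/5 IT-like, -0.62 ± 0.28 in L5 IT-like, -1.03 ± 0.35 in L5 ET-like, -0.64 ± 0.28 in L6 CT-like and -0.46 ± 0.47 in L6 IT-like nuclei. Genes past the threshold were 1.1%, 0.593%, 0.39%, 0.22%, 0.122% and 0.0343% of those tested in these types, in the same order. In L6 IT-like nuclei the genotypes overlapped. In the other 5 types both CrT-KO libraries lay below both controls, as did 20.1%, 19.5%, 18.3%, 18.3% and 18.7% of all genes tested in them. Penk in excitatory neurons (-0.55 ± 0.29) rested on the 123 UMIs of the second control library, against 60 to 69 in the other libraries, and was 0.06 without it. Without the first control library it was -0.98.

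Levels in non-neuronal nuclei moved in the same direction for some of these genes. Cck there was at 12.2 and 19.1 CPM in controls against 9.04 and 10.3 in CrT-KO, and Vip at 4.96 and 5.23 against 2.58 and 2.74. Penk (7.63 and 13.6 against 11.6 and 6.17) and Sst (3.43 and 11.2 against 6.46 and 6.86) overlapped. Median UMIs per VIP-like nucleus were 5039 and 5337 in controls against 5336 and 4585.5 in CrT-KO. The part of free RNA and of depth in the genotype differences was not tested.

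**Figure D5:**
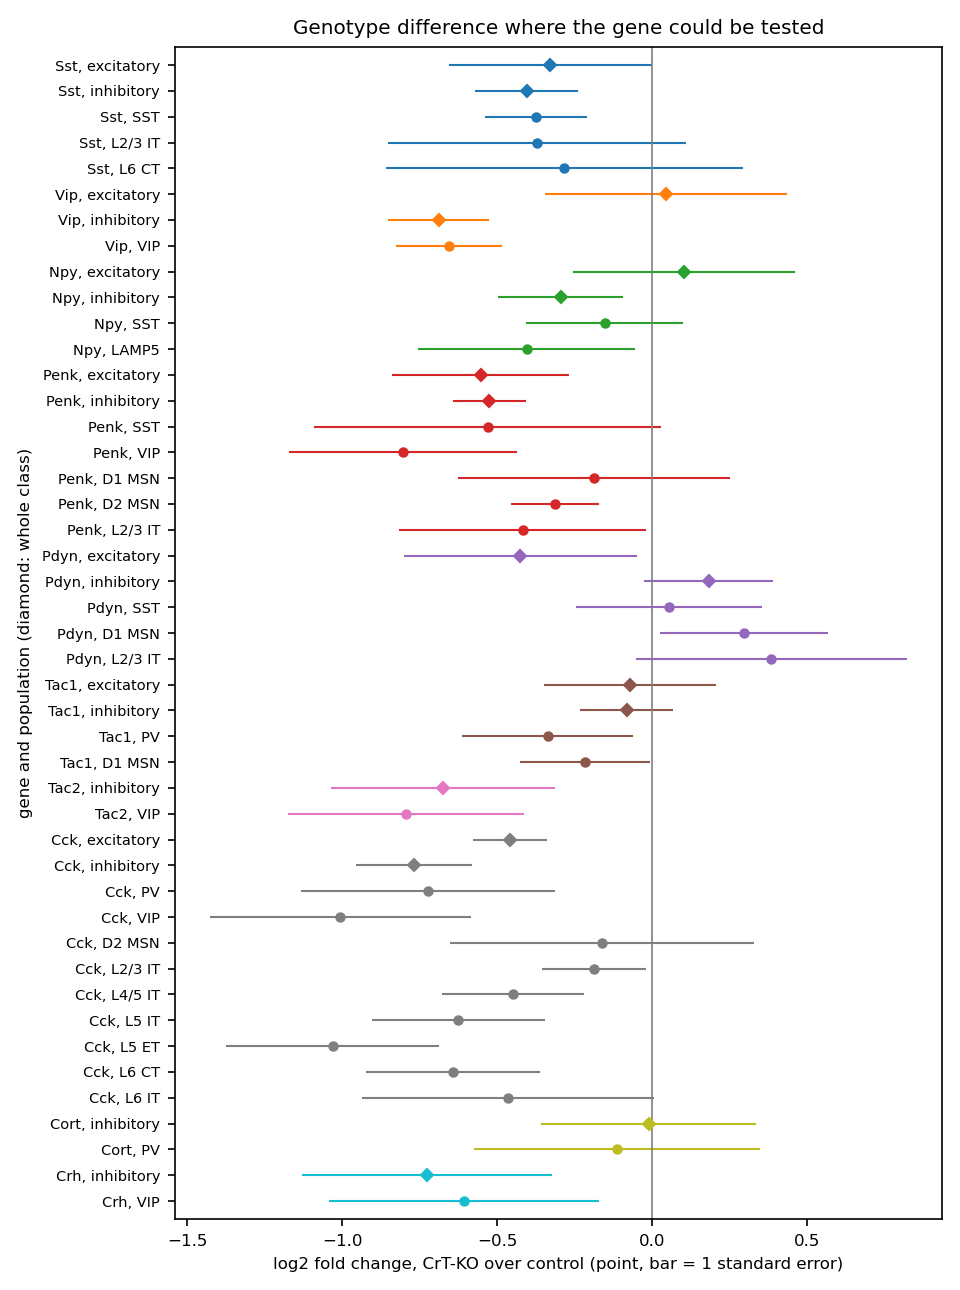
Log2 fold change of CrT-KO over control (horizontal axis) for the 45 pairs of a gene and a population that had enough counts. Points are named types, diamonds the excitatory or inhibitory class, bars 1 standard error. Of the 45 values 39 lie below 0, and those above 0 belong to Pdyn, Vip and Npy.

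The genotype effect was also compared between inhibitory and excitatory neurons, with the library as a block. No peptide gene passed (edgeR interaction test, adjusted p from 0.737 for Cck to 0.994 for Tac1, 0.0637% of all genes past the threshold), and none had an unadjusted p under 0.05. The inhibitory minus excitatory log2 difference was -0.32 ± 0.16 for Cck and -0.73 ± 0.43 for Vip. For Vip it rested on the control libraries, at 0.082 without the first and -1.78 without the second. Vip in excitatory neurons rested on 14 to 34 UMIs per library.

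The rest of the peptide pathway was read from 3 lists, tested in the same 16 populations. Of the 16 genes for peptide processing and dense core vesicle cargo, 1 passed higher and 1 lower, among 249 pairs of a gene and a population that could be tested. In the types concerned, 1.1% (L2/3 IT-like) and 0.39% (L5 IT-like) of all genes tested passed. Cadps2, which primes dense core vesicles for release, was at 196 and 166 CPM (here TMM-scaled) in controls against 323 and 317 in CrT-KO in L2/3 IT-like nuclei (log2 fold change 0.82 ± 0.09, edgeR adjusted p = 5.5e-05). Pcsk2, a convertase that cuts the precursors, was lower in L5 IT-like nuclei, at 1430 and 1379 against 1157 and 1037 (-0.36 ± 0.09, edgeR adjusted p = 0.0876). Of the 19 genes for receptors of these peptides and the CRH binding protein, 1 passed among 106 pairs, in L4/5 IT-like nuclei, where 0.593% of all genes passed. Oprm1, the mu opioid receptor at which enkephalins act, was lower, at 92.4 and 82.4 against 57.7 and 64.8 (-0.51 ± 0.11, edgeR adjusted p = 0.0564). None of the 11 other peptide genes, such as Pnoc and Nts, passed in the 32 pairs tested.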

How the data were processed

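Single-nucleus RNA libraries (10x Genomics 3′ chemistry, 1 per animal) were aligned by the authors with Cell Ranger 3.1.0 to GRCm38 with introns counted as well as exons, and the deposited matrices hold raw UMI counts of called nuclei, 302 or more genes each, without annotation. Submitters' notes also list FastQC and Seurat 3.1.4. Whether counting used the strand was not given in the sources used here. The 10 genes and all lists were chosen with earlier results of these data known. Doublets were removed per library by Scrublet (scanpy 1.11.5), 1236 nuclei. Nuclei were clustered (3000 variable genes without the 10, 30 components, 20 neighbours, Leiden resolution 1.0) and named from marker lists. A type needed 5 markers detected in 10% of its nuclei (a class, or D1 and D2, needed 3), a mean score of 0.5 (0 for D1 and D2) and no more leading genes of another class than of its own. The cut-offs were chosen with the matrices already in view, and 3006 inhibitory and 4183 excitatory nuclei stayed without a type. Names were rebuilt here and may differ from the study's. UMI counts were summed per library and type and tested with edgeR 4.0.16 (TMM, filterByExpr), on R 4.3.3. The study tested nuclei by rank, and nuclei are not replicates. SE was derived from the fold change and F. CPM values are scaled to all UMIs of a type. Shares were thinned to 1000 UMIs. A count of 0 was given a limit of 3 nuclei, for counting error only. Gene positions are from GENCODE vM21, in which 21816 of 21933 identifiers were found. Every gene of the lists was named where it passed, and for each of the 10 genes the transcripts most like it were taken among those with 20 CPM in a type. The alternatives were DESeq2 1.42.0, no filter, no TMM, a replicate block, each library left out, doublets kept, stricter nuclei, a threshold of 0.05, resolution 2.0 and clustering with the 10 genes.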

Additional observations from a re-analysis of the deposited data

How the results depend on the processing

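Of 581 log2 fold changes of the 10 genes under the alternatives, 537 kept their direction and stayed short of the threshold, 15 passed it and 29 changed direction. The cause was not tested. Peptide genes past the threshold rose from 0 to 3 in inhibitory neurons (Penk, Vip and Cck) and to 1 in VIP-like nuclei (Vip) without a filter on low counts, which adds genes to the fit. The labels give replicates 1 and 2 in each genotype without saying that a number marks a shared litter or day. With the replicate number as a block, 1 passed in excitatory neurons (Cck) and 3 in inhibitory neurons (Penk, Vip and Cck), and all genes past the threshold rose from 46 to 742 and from 8 to 166. Same-numbered libraries deviated together with correlations of 0.243 and 0.169. With 1 library left out, the peptide genes past the threshold ranged from 0 to 1 in excitatory neurons, 0 to 2 in inhibitory neurons (Penk without the first control library, Vip without the second, Vip and Cck without the first CrT-KO library), 0 to 1 in VIP-like nuclei and 0 to 1 for the difference between inhibitory and excitatory neurons (Vip without the second control library), and all genes from 25 to 108 and from 30 to 47. The ranges for all genes are those of excitatory and inhibitory neurons, in that order, and do not cover VIP-like nuclei or the difference. Each such fit leaves a genotype with 1 library, whose spread is assumed from the other genotype. A peptide gene past the threshold there, Vip included, is therefore not read as a genotype difference. All genes past the threshold in excitatory neurons were 76 by DESeq2, 13 without a filter, 13 without TMM factors, 26 with doublets kept, 22 at resolution 2.0 and 15 at a threshold of 0.05. Without a filter they were 50 in inhibitory neurons, and 10 in VIP-like nuclei against 0 in the main setting.

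Directions changed in small values and also in larger ones. With 1 library left out, the log2 fold change ranged as follows. In excitatory neurons it ranged from -0.79 to 0.058 for Pdyn, -0.98 to 0.059 for Penk, -0.23 to 0.056 for Tac1, -0.024 to 0.24 for Npy, -0.46 to 0.82 for Vip and -0.73 to 0.18 for Sst. In inhibitory neurons it ranged from -0.075 to 0.074 for Cort and -0.22 to 0.032 for Tac1. In PV-like nuclei it ranged from -0.32 to 0.035 for Cort. In SST-like nuclei it ranged from -0.079 to 0.19 for Pdyn, -1.53 to 0.11 for Penk and -0.52 to 0.35 for Npy. In D1 MSN-like nuclei it ranged from -0.67 to 0.60 for Penk. In D2 MSN-like nuclei it ranged from -0.36 to 0.051 for Cck. In L2/3 IT-like nuclei it ranged from -0.83 to 0.15 for Penk. In L6 CT-like nuclei it ranged from -1.17 to 0.35 for Sst. For the difference between inhibitory and excitatory neurons it ranged from -0.51 to 0.39 for Penk, -3.93 to 1.79 for Cort, -0.047 to 0.016 for Tac1, -1.78 to 0.082 for Vip, -0.86 to 0.36 for Tac2 and -0.64 to 0.39 for Sst. Without TMM factors the reversed values were -0.00036 for Vip in excitatory neurons and 0.022 for Tac1 (inhibitory minus excitatory). By DESeq2 the reversed values were 0.0015 for Cort in inhibitory neurons. With doublets kept the reversed values were 0.12 for Cort in inhibitory neurons, -0.0068 for Pdyn in SST-like nuclei, 0.029 for Tac1 (inhibitory minus excitatory) and -0.0076 for the PV-like nuclei share (percentage points, CrT-KO minus control). At resolution 2.0 the reversed values were 0.028 for Penk in D1 MSN-like nuclei and 0.013 for the D1 MSN-like nuclei share (percentage points, CrT-KO minus control). With the 10 genes in the clustering the reversed values were -0.12 for Pdyn in L2/3 IT-like nuclei, -0.029 for Penk (inhibitory minus excitatory) and -0.0097 for the PV-like nuclei share (percentage points, CrT-KO minus control).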

Other observations

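Some inhibitory sub-clusters that met no type's markers also held peptide transcripts (chosen after their values were seen). A Folh1-led sub-cluster of 189 nuclei, with Drd3, had Tac1 at 123 and 88.3 CPM in the control libraries against 96.6 and 94.2 in CrT-KO, from 9 to 20 UMIs each. A Slc22a3-led one of 146 nuclei, with Isl1, had Tac1 at 28.7 and 57.5 in controls against 44.5 and 34.8 in CrT-KO. A Chst9-led one of 324 nuclei, with Tshz1, had Penk at 71.2 and 11.9 in controls against 19.1 and 39.3 in CrT-KO, so that the 2 control libraries lay farther apart than the genotypes. A sub-cluster of 183 nuclei led by mitochondrial genes had UMIs of 7 of the 10 genes, with Cck at 59.7 and Penk at 35.8 CPM over all libraries. The part of free RNA in these levels was not tested, so they are not read as expression by a neuron type. A Chat-led and Slc5a7-led sub-cluster of 37 nuclei, with genes of cholinergic neurons, had no UMI of Penk, Pdyn, Tac2, Cort or Crh. So few nuclei set only a loose limit.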
